A study of Mus musculus with 4 samples.

Results

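Centroblasts whose S-phase score was at least as high as their G2M score in the deposited cell table are described here as S-leading centroblasts. They numbered 418 of 2262 centroblasts, of 9804 annotated germinal center (GC) B cells and of 39009 barcodes in all. The scores compare the mean of a list of S-phase or G2M genes with that of control genes in the same cell, so the members were chosen by the measured levels of those genes, which stand below as a description. The cells came from spleens of female mice of C57BL/6J background, aged 8 weeks and immunized with sheep red blood cells. They were sorted at day 10 as B220+IgD- cells and counted by 3' single-cell RNA sequencing. Each genotype was 1 mouse and 1 library, so no value between genotypes has a replicate check, and the 95% intervals given with values cover counting error only. All 4 libraries carried the Cγ1-cre allele, which drives Cre recombinase in B cells as they enter the GC reaction. WT had no floxed allele, C was Crebbp fl/+, K was Kmt2d fl/+ and CK carried both heterozygous floxed alleles. Crebbp encodes a histone acetyltransferase and Kmt2d a histone H3 lysine methyltransferase. In the order WT, C, K, CK the S-leading centroblasts numbered 21, 77, 116 and 204.

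Centroblasts are the dividing B cells of the GC dark zone, where the antibody genes mutate during rapid cell cycles. In S phase the replicative helicase unwinds DNA, polymerases copy it behind the sliding clamp PCNA, nucleotide pools are refilled and new histones are made to package the copies. Genes for replication are known targets of the E2F factors, whereas many genes of G2 and mitosis hold a cell cycle homology region (CHR) in their promoters.

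The libraries held 8071 to 12852 barcodes and 33270825 to 39803865 UMIs, the counted RNA molecules. The S-leading centroblasts of WT, C, K and CK contributed 118955, 397954, 665810 and 985904 UMIs, and a count of 0 allowed up to 25.2, 7.54, 4.51 and 3.04 CPM, respectively (3 counts of the total, where CPM is UMIs of a gene scaled to a class total of 1e6). Their median UMIs were 5743, 5097, 5929.5 and 4756. Annotated cells ended below 2500 genes, and 42.9%, 23.4%, 26.7% and 19.1% of members in the same order had over 2250 genes. Across the libraries 143 barcodes occurred in 2 libraries, which touched 5 members. Crebbp gave 8, 13, 37 and 37 UMIs and Kmt2d 2, 4, 9 and 16 UMIs in members of WT, C, K and CK. These 3' counts may lie outside the deleted exons and check nothing about recombination.

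To show the promoter letters that separate the S-phase list from the G2M list, 4 RefSeq promoter windows (GRCm38.p6, 250 bases before to 50 after the transcription start, 5′ to 3′ on the gene's strand) are given, with the matched letters in capitals. Mcm6 encodes a subunit of the MCM helicase and Dtl an adaptor of the ubiquitin ligase that removes the licensing factor Cdt1 in S phase, and both were markers of the S-leading cells. Ccnb2 encodes a mitotic cyclin and Plk1 a mitotic kinase. The windows lie at chr1:128359656-128359955 on the minus strand for Mcm6, chr1:191575495-191575794 (minus) for Dtl, chr9:70421505-70421804 (minus) for Ccnb2 and chr7:122159185-122159484 (plus) for Plk1.
Mcm6: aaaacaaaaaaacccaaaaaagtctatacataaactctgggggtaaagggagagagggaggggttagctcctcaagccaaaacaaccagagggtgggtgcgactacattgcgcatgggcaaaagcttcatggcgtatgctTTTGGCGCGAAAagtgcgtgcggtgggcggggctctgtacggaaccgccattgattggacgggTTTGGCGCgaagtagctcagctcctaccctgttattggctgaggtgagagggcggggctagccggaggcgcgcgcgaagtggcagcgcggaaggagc
Dtl: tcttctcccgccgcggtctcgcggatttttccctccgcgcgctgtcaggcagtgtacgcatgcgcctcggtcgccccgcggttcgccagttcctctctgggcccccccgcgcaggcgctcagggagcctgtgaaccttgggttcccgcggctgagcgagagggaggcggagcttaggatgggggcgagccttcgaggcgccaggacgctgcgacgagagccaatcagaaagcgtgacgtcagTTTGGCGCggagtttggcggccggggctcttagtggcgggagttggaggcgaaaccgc
Ccnb2: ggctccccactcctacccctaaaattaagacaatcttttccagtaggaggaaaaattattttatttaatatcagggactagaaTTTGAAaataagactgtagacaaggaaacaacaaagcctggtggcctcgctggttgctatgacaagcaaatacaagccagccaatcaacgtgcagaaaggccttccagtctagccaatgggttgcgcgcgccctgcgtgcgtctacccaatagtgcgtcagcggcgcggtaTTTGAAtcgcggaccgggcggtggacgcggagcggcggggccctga
Plk1: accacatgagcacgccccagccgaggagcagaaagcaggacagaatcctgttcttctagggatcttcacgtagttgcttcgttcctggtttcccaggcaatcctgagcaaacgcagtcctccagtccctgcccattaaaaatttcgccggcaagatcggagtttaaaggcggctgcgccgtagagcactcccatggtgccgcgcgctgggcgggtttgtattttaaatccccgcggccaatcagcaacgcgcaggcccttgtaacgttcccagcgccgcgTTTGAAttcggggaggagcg

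The letters searched on both strands were TTTGGCGC, TTTCCCGC, TTTCGCGC and TTTGCCGC for E2F and TTTGAA for the CHR. E2F letters were found in 12 of 31 genes of the S score list with a window (38.7%), in 3 of 47 of the G2M score list (6.38%) and in 2.61% of all 27025 genes with a window. For the CHR letters the order was the opposite, with 33 of 47 genes of the G2M list (70.2%), 6 of 31 of the S list (19.4%) and 20.2% of all genes. In Mcm6 an overlapping pair of E2F matches began 110 and 106 bases before the start and another 47 bases before it, and in Dtl the match began 8 bases before the start. The Ccnb2 window held CHR letters from 167 bases before and 4 bases after the start, and that of Plk1 from 30 bases after it. The windows of the other markers, Pcna and Rrm2, held neither set of letters, and neither did that of Ccnb1, another mitotic cyclin gene. In a list of nucleotide supply genes, E2F letters were found in 0 of 15 genes with a window. A match describes letters only.

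The 4 markers of the S-leading centroblasts were detected in every library. They did not set members apart from early centroblasts, where their sum was higher in each library. The 4 genes summed to 1564, 1797, 1663 and 1740.5 CPM in members of WT, C, K and CK. In early centroblasts they summed to 1709, 1913, 1748 and 1964 CPM. Gene positions are given on GRCm38. Mcm6 (ENSMUSG00000026355, chr1:128331590-128359664) stood at 412, 447, 418 and 405 CPM in members of the libraries WT, C, K and CK, against 86.6, 112, 119.9 and 149 CPM in the other centroblasts. Rrm2 (ENSMUSG00000020649, chr12:24708241-24714146), a subunit of ribonucleotide reductase, stood at 773, 1000.1, 892 and 976 CPM in members and at 106, 205, 197 and 294 CPM in the other centroblasts. The member values lay above the others in all 4 libraries, with counting intervals of 305 to 545 CPM for Mcm6 and 623 to 949 CPM for Rrm2 in the shallow WT sum. Pcna (ENSMUSG00000027342, chr2:132249162-132253314), the sliding clamp, stood at 235, 214, 267 and 245 CPM in members of WT, C, K and CK and at 45.1 to 69.8 CPM in the other centroblasts. Dtl (ENSMUSG00000037474, chr1:191537356-191575544) stood at 143, 136, 85.6 and 115 CPM in members and at 27.3 to 44.3 CPM in the other centroblasts. Among members Dtl was lowest in K, where its interval of 64.8 to 111 CPM overlapped those of the other libraries.

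**Figure D1:**
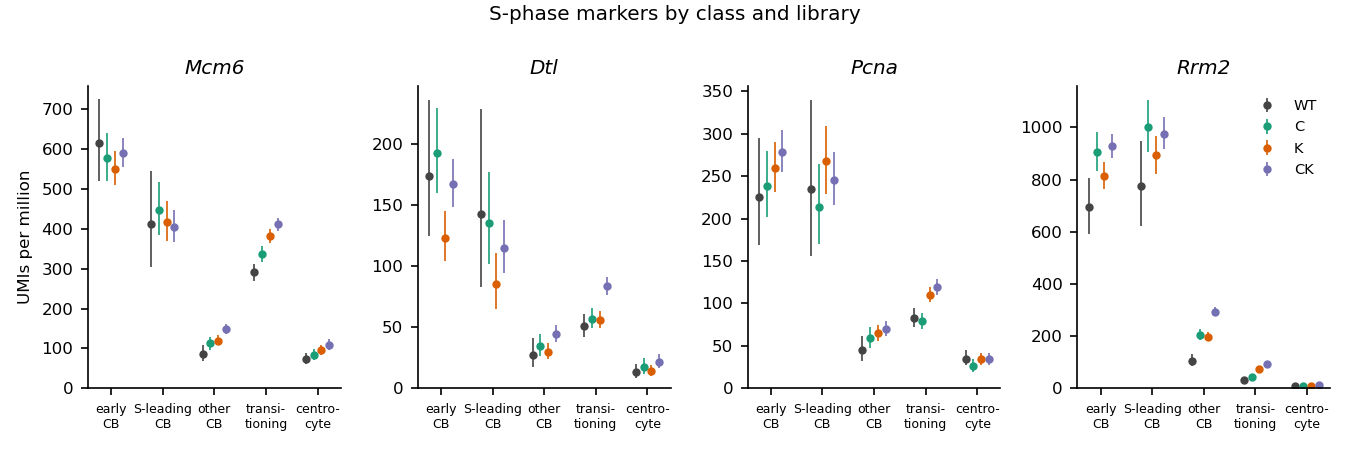
UMIs per 1e6 UMIs of the class (linear axis from 0) of Mcm6, Dtl, Pcna and Rrm2 summed over the cells of 5 classes in each library. The classes are deposited subtypes, with the centroblasts split here by their deposited scores. Points are libraries (WT, C, K, CK) and bars are 95% Poisson intervals of the counts. S-leading and early centroblasts sit well above the other centroblasts for all 4 genes, and Mcm6 is also high in cells in transition to centrocytes.

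A share of cells with a UMI showed the same markers cell by cell. Rrm2 gave a UMI in 76.2%, 81.8%, 82.8% and 82.4% of WT, C, K and CK members, against 2.95% to 3.88% of centrocytes, the largely non-dividing cells of the light zone (median 2670 to 4741 UMIs). With every cell thinned to 2000 UMIs, which left out 1 member in WT, 1 in K and 2 in CK, the shares were 70.0% to 71.3% of members and 0.541% to 2.58% of centrocytes. Mcm6 was less selective, with a UMI in 78.9% to 89.6% of members and 21.4% to 27.2% of centrocytes. In early centroblasts Rrm2 gave a UMI in 92.1% to 95.9% of cells, and in 68.4% to 80.3% of thinned cells.

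The members were not uniform. In 352 of 418 (84.2%, exact 95% interval 80.4% to 87.6%) both scores were above 0, in 23 only the S score was, and in 43 (10.3%) the S score was itself at or below 0. The split at an S score of 0 uses genes of that score, so the levels on either side are a description. In these 43 cells, with a median of 3794 UMIs against 5478.5 in the 352, Rrm2 stood at 17.1 CPM against 1067 CPM and Dtl at 22.9 against 123 CPM. Mcm6 stood at 206 CPM (144 to 285) against 439 CPM, and Mki67, a marker of cycling cells, at 62.8 CPM against 755 CPM. Ccnb1 gave 3 UMIs in the 43 cells (17.1 CPM, 3.53 to 50.1), an interval that overlapped that of the 352 (31.5 to 50.1). The 23 cells with only the S score above 0 had a median S score of 0.044, with Rrm2 at 189 CPM, Dtl at 31.5 CPM and Mcm6 at 367 CPM. Of the 43, WT held 3 among 21 members, C 11 of 77, K 9 of 116 and CK 20 of 204.

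**Figure D2:**
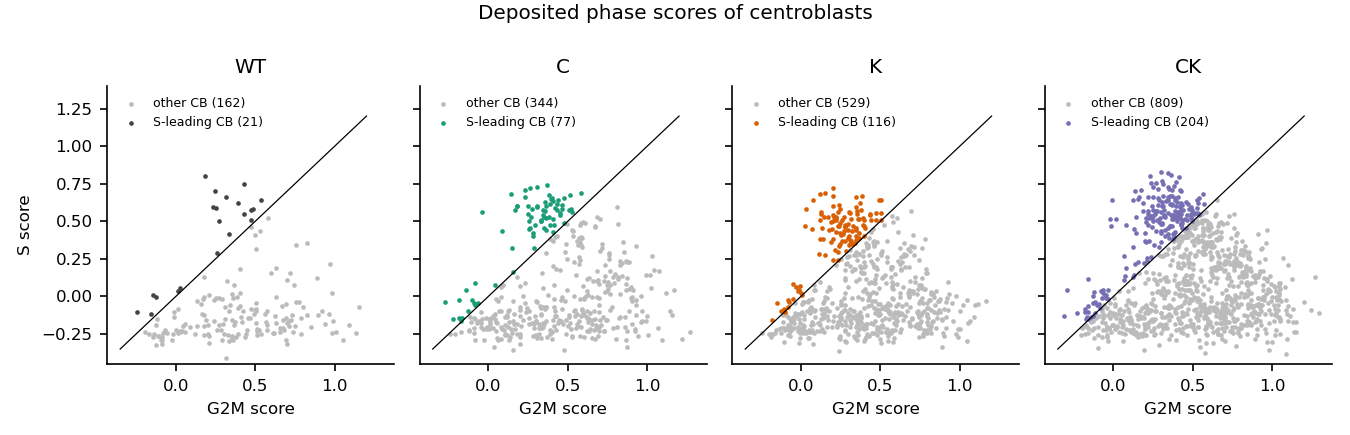
Deposited S score against G2M score (both unitless) of every centroblast, one panel per library, with the line of equal scores. Coloured points are S-leading centroblasts (21, 77, 116 and 204 for WT, C, K and CK) and grey points the other centroblasts. Most members form a group with both scores above 0, and a smaller group lies near or below 0 on both axes.

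Near the line of equal scores, 75 members lay within 0.05 above it and 80 other centroblasts within 0.05 below it. The nearest members exceeded equality by 5.3e-06 to 0.00144, and the nearest other centroblasts fell short of it, with differences of -0.000848 to -0.00169. The deposited clusters placed 342 members in cluster 3, together with 676 of 680 early centroblasts and 616 of 1844 other centroblasts. The remaining members were 54 in cluster 6, 18 in cluster 5 and 4 in cluster 4. On the deposited pseudotime rank the members were the earliest class in each library, at median percentiles of 1.88, 8.04, 8.35 and 11.2 within their own library (WT, C, K, CK). Early centroblasts stood at 5.10, 9.83, 12.97 and 16.7 and the other centroblasts at 16.2, 19.1, 23.9 and 20.8. The paper anchored this axis at centroblasts, so an early place for centroblasts as a whole was set in advance.

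Replication genes separated members from the other centroblasts most. Over all genes with at least 50 UMIs over both classes and 50 CPM in one of them in each library, 2.70% were at least 1.5-fold higher in members in all 4 libraries and 2.50% at least 1.5-fold lower, of 2515 tested. Of the S score list, which chose the cells, 22 of 22 tested genes were higher, and of the G2M score list 19 of 45 were lower and 0 higher. For lists assembled by role the counts of higher genes were 8 of 9 for licensing and helicase, 12 of 17 for polymerase and fork, 8 of 10 for nucleotide supply and 8 of 12 for chromatin assembly, and none of these lists had a lower gene. With the genes of the score lists left out these counts were 3 of 4, 4 of 9, 5 of 7 and 5 of 9.

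The helicase genes Mcm3 and Mcm7, outside the score lists, showed the difference in each library. Mcm3 stood at 395, 357, 406 and 466 CPM in members of WT, C, K and CK and at 88.9, 118, 121 and 173 CPM in the other centroblasts, a mean log2 ratio of 1.73. Mcm7 stood at 353, 329, 470.1 and 351 CPM against 93.7, 111, 161 and 151 CPM. The order of the libraries differed between the genes, with CK highest for Mcm3 and K highest for Mcm7 among members.

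At the fork, Lig1, the ligase that joins Okazaki fragments, had the highest mean log2 ratio outside the score lists, 2.34. Its values were 546, 505, 515 and 543 CPM in members and 56.9, 99.9, 121 and 172 CPM in the other centroblasts. Members differed little among libraries, whereas the other centroblasts were lowest in WT and highest in CK. Pclaf, a PCNA-binding factor, stood at 2446, 3139, 3019 and 3148 CPM in members against 612, 1179, 1013 and 1506 CPM. The clamp loader genes Rfc3 and Rfc4 had mean log2 ratios of 1.49 and 1.48. Fbxo5, an inhibitor of the anaphase-promoting complex, stood at 244, 259, 266 and 241 CPM in members against 41.5 to 132 CPM in the other centroblasts and 76.5 to 193 CPM in early centroblasts.

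Nucleotide supply and chromatin assembly followed. Tyms, which makes thymidylate, stood at 185, 214, 263 and 198 CPM in members against 35.6 to 80.3 CPM in the other centroblasts. Tk1, the salvage thymidine kinase, stood at 177, 276, 354 and 292 CPM against 48.6 to 132 CPM. Tyms and Tk1 were above the other centroblasts in every library. Tyms and Uhrf1 are genes of the S score list that chose the cells, so their levels are a description. Uhrf1, which recruits the maintenance methyltransferase Dnmt1 to newly copied DNA, stood at 143, 146, 147 and 109.5 CPM against 21.4 to 35.2 CPM, and Dnmt1 itself at 353, 462, 227 and 474 CPM against 87.3 to 266 CPM. Of the E2F axis 1 of 4 tested genes was higher, and of repair and checkpoint 1 of 2, against 2.70% of all tested genes. Score list genes were kept in both counts.

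Mitotic genes were lower in members, 10 of 19 tested genes of the mitosis list and 0 higher, against 2.50% and 2.70% of all tested genes. The rule held the G2M score of members at or below their S score. Genes of the score lists were not left out of this count, so it is a description. Ccnb1, the cyclin of mitotic entry, had the lowest mean log2 ratio among genes outside the score lists, -2.48, at 25.2, 30.2, 36.0 and 42.6 CPM in members against 173, 161, 245 and 168 CPM in the other centroblasts. Only 3 Ccnb1 UMIs were counted in WT members. Cdkn3, a phosphatase of cyclin-dependent kinases, stood at 84.1, 88.0, 99.1 and 74.0 CPM against 377 to 436 CPM, and Plk1 at 25.2, 67.8, 81.1 and 79.1 CPM against 139 to 242 CPM. Cdk1 did not follow, at 202, 188, 228 and 222 CPM in members against 92.5, 214, 226 and 277 CPM, given without intervals. Members were higher in WT, level in K, lower in CK and, by a smaller margin, lower in C. Mki67 was likewise near the other centroblasts, at 883, 797, 412 and 777 CPM in members and 849, 954, 386 and 1010.1 CPM in the other centroblasts.

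Light zone and MHC class II genes summed higher in members than in the other centroblasts in all 4 libraries. Light zone genes stood at 925, 827, 764 and 596 CPM in members of WT, C, K and CK against 569, 566, 548 and 474 CPM, and MHC class II genes at 32769, 32232, 34176 and 26617 CPM against 27551, 26743, 28561 and 23910.0 CPM. The mean log2 ratio over the libraries was 0.51 for light zone and 0.23 for MHC class II genes, and 0.14 and -0.0056 once cells over the gene limit entered. The list of GC identity summed to 10559, 10639, 10686 and 9989 CPM in members and 10234, 9913, 10220.0 and 9950.3 CPM in the other centroblasts. No single gene of 15 tested for GC identity, 6 for the dark zone, 4 for the light zone and 9 for MHC class II passed 1.5-fold in all 4 libraries in either direction, against the background of 2.70% and 2.50%. The GC markers Fas (227 to 258 CPM) and S1pr2 (106 to 143 CPM) were present in members of every library. Bcl6, another GC marker, gave a UMI in 15.6% to 38.1% of members and 16.1% to 30.9% of the other centroblasts. Markers of T cells summed to 16.8 to 29.4 CPM and of NK cells to 2.51 to 19.3 CPM. Of 6 myeloid markers only Cst3 was counted in members (224 to 311 CPM), and Lyz2 had 0 UMIs in all 418 cells. The list of plasma cell markers summed to 2367 to 2690 CPM in members, with at least 2 of its 6 genes at 0 in members of each library, and to 2827 to 3285 CPM in the other centroblasts. Of this list, Jchain gave a UMI in 87.0% to 100% of members and 91.2% to 96.9% of the other centroblasts.

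Members were also compared with the early centroblasts (38, 110, 190 and 342 cells in WT, C, K and CK). Of 1170 genes tested in each library, 0.855% were at least 1.5-fold higher in members in all 4 libraries and 0.0855% lower, and these included 4 of 4 tested replicative histone genes, 3 of 15 genes of the G2M list and, as the lower gene, 1 of 25 of the S list. That gene was Mcm2, at 185, 143, 164 and 167 CPM in members against 357, 234, 263 and 269 CPM in early centroblasts. Ung, the glycosylase that removes uracil from DNA, did not pass the count minimum in WT, but stood at 42.0, 17.6, 19.5 and 36.5 CPM in members, 149, 135, 133 and 144 CPM in early centroblasts and 0 to 4.30 CPM in the other centroblasts. The members thus lay between both classes for Ung in every library.

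E2f1, Mcm5 and Apex1 gave the same order, which in part follows from how the genes were chosen. Ung, Mcm5 and Ccnb2 belong to the score lists that chose the cells. E2f1 and Apex1 were named because they ranked furthest below early centroblasts outside those lists. The order is therefore a description. E2f1, an activating E2F factor, stood at 75.7, 90.5, 107 and 63.9 CPM in members, 128 to 154 CPM in early centroblasts and 14.2 to 22.6 CPM in the other centroblasts. Mcm5 stood at 235, 289, 375 and 301 CPM in members, 389.7 to 528 CPM in early centroblasts and 70.0 to 114 CPM in the others. Apex1, the endonuclease of base excision repair, stood at 58.8, 75.4, 72.1 and 66.9 CPM, 115 to 140.0 CPM and 19.0 to 38.9 CPM in that order of classes. Ccnb2 ran the opposite way, at 185, 156, 156 and 174 CPM in members between 38.3 to 68.4 CPM in early centroblasts and 582 to 693 CPM in the others. As summed lists, licensing and helicase genes were lower in members than in early centroblasts by 0.37 to 0.47 on the log2 scale, and mitosis genes higher by 0.56 to 0.75.

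The replicative histone genes, which supply the core and linker histones for newly copied DNA, peaked in members. The 67 genes summed over members to 4716 CPM for WT (4334 to 5123), 5855 for C (5619.6 to 6098), 2292 for K (2178 to 2409.9) and 6594 for CK (6435 to 6756). In the other centroblasts they summed to 1249.9, 2701, 955 and 3915 CPM and in early centroblasts to 1309, 2486, 807 and 2490.0 CPM. Members exceeded both classes in each library, by 0.75 to 1.92 on the log2 scale over the other centroblasts and by 1.24 to 1.85 over early centroblasts. In CK, where the S-leading cells were most, the ratio over the other centroblasts was lowest. Across members K stood below WT and C and CK above it.

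**Figure D3:**
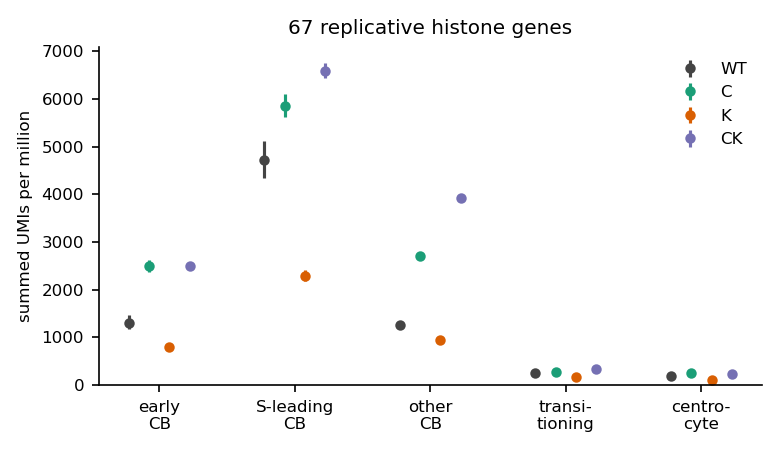
Summed UMIs per 1e6 UMIs of the class (linear axis from 0) of 67 replicative histone genes in 5 classes, with 1 point per library and 95% Poisson intervals. The classes are deposited subtypes, with the centroblasts split here by their deposited scores. S-leading centroblasts are the highest class in each library, at 2292 in K and 4716 to 6594 in the other libraries, and K is the lowest library in every class shown.

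The low histone sum of K was not limited to members. In barcodes with T cell markers and no B cell marker, which the annotation leaves out, the same genes summed to 463, 384, 151 and 548 CPM for WT, C, K and CK. Relative to those barcodes the log2 ratio of K over WT in members changed from -1.04 to 0.58, so its direction depends on that reference, and the part of the library as a whole in the histone values was not tested. Genes of the family also differed in direction. Hist1h1b, a linker histone gene, stood at 1807, 2483, 384 and 2469 CPM in members of WT, C, K and CK, and Hist1h1e at 555, 689, 129 and 882 CPM. Hist1h2ap (319, 216, 565 and 416 CPM) and Hist1h4i (227, 186, 348 and 251 CPM) were instead highest in K. Close copies within the histone clusters can share reads, so values of single histone genes are uncertain. How fully 3' counting captured the histone RNAs, in any class or library, was not tested.

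Between genotypes, S-leading cells made up 11.5% of the 183 WT centroblasts (7.25% to 17.0%), 18.3% of 421 for C (14.7% to 22.3%), 18.0% of 645 for K (15.1% to 21.2%) and 20.1% of 1013 for CK (17.7% to 22.7%). The difference from WT was 6.81 percentage points for C (0.228 to 12.7), 6.51 for K (0.270 to 11.8) and 8.66 for CK (2.62 to 13.6). The 3 mutant values lay within each other's intervals, and WT lay below them. As a share of annotated cells the values were 1.71%, 3.77%, 4.49% and 5.16% in WT, C, K and CK. The order depends on the gene limit of the annotation. When cells of 2500 genes or more were added by the label of their nearest neighbours and every centroblast was scored anew, the shares of WT, C, K and CK were 16.1%, 15.9%, 11.0% and 17.1%. That step added 476, 414, 491 and 478 centroblasts to the 183, 421, 645 and 1013 of WT, C, K and CK. For annotated cells the neighbour vote returned the subtype of 68.4% of S-leading and 91.7% of other centroblasts. What this unequal rate does to the shares with added cells was not tested.

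**Figure D4:**
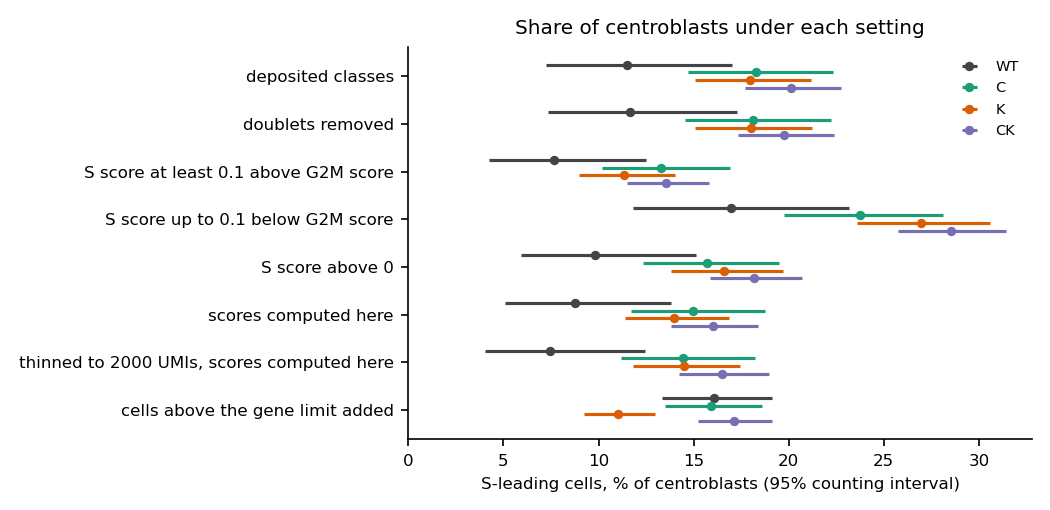
S-leading cells as percent of centroblasts in each library (points) with exact 95% counting intervals (bars). The first row uses the deposited subtypes and scores, and 7 other settings follow. WT is the lowest library in the first 7 rows, at 11.5% in the first row. Once cells above the gene limit are added, WT at 16.1% is level with C (15.9%) and above K (11.0%).

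Within members, the markers that chose them differed little between genotypes, whereas the other centroblasts differed more. The S score list summed to 8995, 9667, 8749 and 9788 CPM in WT, C, K and CK members and to 2140.4, 3199, 2875 and 4149.9 CPM in the other centroblasts. The log2 ratio of CK over WT was 0.12 (0.03 to 0.21) in members and 0.96 (0.89 to 1.03) in the other centroblasts. In C the ratios were 0.10 and 0.58, and in K -0.040 and 0.43. The rule uses these genes and bounds the S score of each class by its G2M score, so the contrast is a description.

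**Figure D5:**
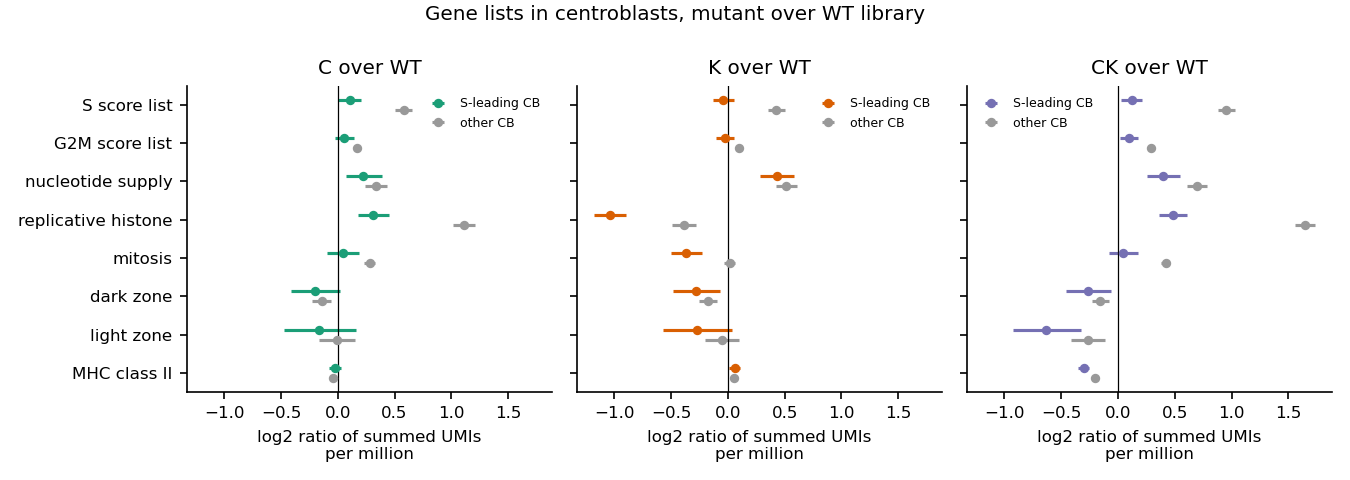
Log2 ratio of summed UMIs per 1e6 of each mutant library over WT for 8 gene lists, in S-leading (coloured) and other centroblasts (grey), with exact 95% counting intervals and no replicates. In CK the S score list stands at 0.12 in S-leading and 0.96 in other centroblasts, and replicative histones at 0.48 and 1.65.

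Single genes were read against the whole table, since WT members gave few UMIs. Genes at least 1.5-fold above WT in members were 7.85% of the 1707 tested for C, 9.98% of 2285 for K and 11.5% of 3079 for CK. For those at least 1.5-fold below, C, K and CK had 4.86%, 13.4% and 9.65%. Of these genes 18.7% to 58.0%, by library and direction, had a counting interval that left out no change. All 3 mutant libraries lay above WT by 1.5-fold for 2.52% of 1666 genes tested in each and below for 1.74%. The S score list gave 3 higher and 1 lower of 32 tested for C, 3 and 8 of 34 for K and 5 and 2 of 40 for CK, and 0 of 30 in all 3 mutant libraries in either direction.

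Of the nucleotide supply list, genes at least 1.5-fold above WT were 3 of 10 tested for C, 5 of 12 for K and 6 of 13 for CK. None was below in each, and 3 of 10 were above in all 3. Over all tested genes the shares above WT were 7.85%, 9.98% and 11.5%, and 2.52% in all 3. Its sums in WT, C, K and CK members were 3438, 4021, 4626 and 4535 CPM, a log2 ratio over WT of 0.23 (0.07 to 0.39), 0.43 (0.28 to 0.58) and 0.40 (0.25 to 0.55). In the other centroblasts the ratios were 0.34, 0.51 and 0.69. Once cells over the gene limit entered, the ratios in members were -0.021, 0.063 and 0.057, so C was no longer above WT and the ratios of K and CK were smaller. Tk1 was at 177 CPM in WT (21 UMIs) and 276 to 354 CPM in the mutants. Its log2 ratios over WT were 0.65, 1.01 and 0.73 in C, K and CK, with the interval for C including no change.

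MHC class II genes, which present antigen to T cells, were lower in CK members. The sums for WT, C, K and CK were 32769, 32232, 34176 and 26617 CPM, and the log2 ratio of CK over WT was -0.30 (-0.35 to -0.25), against -0.20 in the other centroblasts. It was -0.031 once cells over the gene limit entered. In CK 3 of 9 tested genes were at least 1.5-fold below WT and 0 above, against 9.65% and 11.5% of all tested genes. H2-DMa, of the peptide exchange factor, stood at 546, 319, 479 and 315 CPM in WT, C, K and CK, and Cd74, the invariant chain, at 24026, 24241, 23616 and 19689 CPM. H2-DMa was lowest in C and CK, and Cd74 in CK, each read from 1 library per genotype. The C and K sums were -0.024 and 0.061 from WT on the log2 scale.

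Between genotypes, light zone genes were lowest in CK members. In CK 4 of 6 tested genes were at least 1.5-fold below WT and 0 above, against 9.65% and 11.5% of all 3079 tested genes. The list stood at -0.63 (-0.93 to -0.33) in CK, against -0.27 in the other centroblasts. Il21r, the receptor for the helper cytokine IL-21, stood at 151 CPM in WT (18 UMIs) and 101, 76.6 and 70.0 CPM in C, K and CK. Cd83, an activation marker, ran the other way at 84.1 CPM in WT (10 UMIs) and 171, 152 and 116 CPM. Dark zone genes were at -0.20, -0.28 and -0.27 in C, K and CK, with 0 of 5, 2 of 6 and 0 of 6 tested genes at least 1.5-fold below. The dark zone sum of C members (1623.8 to 1886.5 CPM) had an interval overlapping that of WT (1762.5 to 2280.7 CPM). The intervals of K and CK ended just below that of WT, both at 1754.3 CPM. Over all tested genes the shares below WT were 4.86%, 13.4% and 9.65%. Rgs13, a regulator of G protein signalling in GC B cells, stood at 723, 570.4, 505 and 525 CPM.

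The genes with the lowest ratio of CK over WT in members, among those on the same side in C and K, were Gm47283, Hbb-bt, Junb, Asxl2 and Cenph. Junb, an immediate early factor, stood at 235 CPM in WT (28 UMIs) and 77.9, 85.6 and 59.8 CPM in C, K and CK, a log2 ratio of -1.98 (-2.65 to -1.27) in CK. In the other centroblasts Junb stood at 73.5, 52.4, 65.2 and 52.9 CPM. The immediate early list as a whole was at -1.48 in CK, and at -0.44 once cells over the gene limit entered. Hbb-bt, a hemoglobin gene, stood at 143 CPM in WT (17 UMIs) and 60.3, 111 and 33.5 CPM, and the 4 hemoglobin genes together at 159.7 CPM in WT and 36.5 to 111 CPM in the mutants. Gm47283, annotated on chromosome Y (277 CPM in WT against 48.7 to 108) was also high in WT in the other centroblasts, at 160.1 CPM against 40.8 to 72.2 CPM. The paper gives all these mice as female, and the cause of these values was not tested.

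The highest were Eif3g, Ighg2b, Hist1h2bm, Idi1 and Cenpf. WT members gave 1 UMI for Eif3g, 0 for Ighg2b, 3 for Hist1h2bm, 4 for Idi1 and 5 for Cenpf. For Ighg2b, the constant region of an IgG class, members stood at 82.9, 91.6 and 123 CPM in C, K and CK, and 49.8 CPM was counted in the other centroblasts of WT. Cenpf, a kinetochore protein, stood at 42.0 CPM in WT and 141, 99.1 and 131 CPM in C, K and CK members, while the other centroblasts stood at 399.6, 501, 364 and 562 CPM. These ratios rest on at most 5 UMIs in WT.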

How the data were processed

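Single-cell libraries of 4 genotypes (1 mouse each) were compared. The deposited matrices hold raw UMI counts per gene and barcode, made by the authors with Cell Ranger 3.0 on mm10, per the submitters' processing notes, which also name Seurat 4.0. The deposited cell table gives the authors' subtypes, percent of mitochondrial UMIs and module scores (each score is a gene list mean minus that of control genes). Its cells end below 2500 genes and 8% mitochondrial UMIs. Column 3 of each matrix was summed per library and class and scaled to CPM. Ratios carry exact conditional 95% intervals, shares Clopper-Pearson and share differences Newcombe intervals. Genes needed 50 UMIs over both sums and 50 CPM in one, and zeros were set to 3 counts. The members and gene lists were chosen with earlier results of these data known. Named genes were those furthest from the compared class on the same side in every library, outside the score lists for the other centroblasts. The ranking against early centroblasts and the other genes named by role were chosen after values were seen. Doublets were kept, and an alternative removed cells with a Scrublet score over 0.2, a common threshold since the automatic one called 0% in C. Called doublets were 13 of 418 members. Other alternatives changed scaling, depth (2000 UMIs), the score cut by 0.1, the cell set (25 neighbours for added cells) and minimums. Scripts were tested on simulated data and used Python 3.11.15, numpy 2.4.6, scipy 1.17.1 and scanpy 1.11.5. Some genes of the lists are not reported here by name.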

Additional observations from a re-analysis of the deposited data

How the results depend on the processing

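The comparisons rest on 1 library per genotype and 21 WT members. Of all values recomputed, 421 stayed within the counting interval of the reported value, or for counts of genes within 1.5 times it, 153 moved outside it and 25 reversed. Reversed means a changed sign where the reported interval left out 0. With added cells these were the share differences of C and K from WT, the C nucleotide supply ratio and the MHC class II ratio over other centroblasts. Relative to T-like barcodes they were the K mitosis and histone and the CK S and G2M score list ratios. Relative to the other centroblasts they were nucleotide supply in C, K and CK, the S score list, chromatin assembly and histones in C and CK, and the G2M score list in CK. The CK G2M score list also reversed as a list median and with either limit on scores, the CK S score list with both scores above 0, and K mitosis as a list median. Beyond the settings themselves, the cause of these changes was not tested. With cells above the gene limit added, median UMIs per member were 11341 for WT, 7723 for C, 6693 for K and 6294 for CK. The share of annotated cells (percent) was 4.98 for WT, 4.88 for C and 3.68 for K. The share of centroblasts (percent) was 11.0 for K and 17.1 for CK. The share of centroblasts (difference, percentage points) was -0.157 for C minus WT, -5.08 for K minus WT and 1.02 for CK minus WT. The share of annotated cells (difference, percentage points) was -0.0999 for C minus WT, -1.30 for K minus WT and 0.499 for CK minus WT. Log2 values of C over WT were -0.058 for G2M score list, -0.021 for nucleotide supply, 0.041 for chromatin assembly, -0.10 for mitosis, 0.087 for replicative histone, 0.17 for MHC class II and -0.044 for immediate early. The genes past 1.5-fold numbered 68 up in C, 39 down in C, 51 up in K, 40 up in CK and 45 down in CK. Log2 values of K over WT were -0.15 for G2M score list, -0.16 for licensing and helicase, 0.063 for nucleotide supply, -0.099 for chromatin assembly, -1.504 for replicative histone, 0.43 for MHC class II and -0.20 for immediate early. Log2 values of CK over WT were 0.00033 for G2M score list, 0.057 for nucleotide supply, 0.10 for chromatin assembly, 0.17 for replicative histone, -0.031 for MHC class II and -0.44 for immediate early. The mean log2 ratio over other centroblasts was 1.48 for marker, 1.16 for S score list, -0.69 for G2M score list, 1.05 for licensing and helicase, 0.88 for polymerase and fork, 0.86 for nucleotide supply, 0.69 for chromatin assembly, -0.90 for mitosis, 0.76 for replicative histone, 0.14 for light zone, -0.0056 for MHC class II and 0.16 for immediate early. With scores computed here, the share of centroblasts (percent) was 14.0 for K and 15.99 for CK. The share of annotated cells (percent) was 3.48 for K and 4.10 for CK. With an S score at least 0.1 above the G2M score, the share of centroblasts (percent) was 13.3 for C, 11.3 for K and 13.5 for CK. With an S score up to 0.1 below the G2M score, the share of centroblasts (percent) was 23.8 for C, 27.0 for K and 28.5 for CK. With thinned cells and scores computed here, the share of centroblasts (percent) was 14.4 for C, 14.5 for K and 16.5 for CK. With median-ratio scaling, the mean log2 ratio over other centroblasts was 1.69 for S score list, -0.57 for G2M score list and 0.30 for MHC class II. With cells thinned to 2000 UMIs, log2 values of C over WT were 0.045 for nucleotide supply, 0.049 for chromatin assembly and 0.094 for replicative histone. The genes past 1.5-fold numbered 55 up in C, 34 down in C, 138 up in K, 77 down in K and 158 down in CK. Log2 values of K over WT were -0.14 for chromatin assembly, -1.19 for replicative histone and 0.0083 for MHC class II. Log2 values of CK over WT were 0.092 for chromatin assembly and 0.34 for replicative histone. The mean log2 ratio over other centroblasts was 1.498 for licensing and helicase and 1.35 for replicative histone. With members also required to have an S score above 0, K over WT stood on the log2 scale at -0.19 for S score list, -0.16 for G2M score list, -0.16 for polymerase and fork, -0.54 for mitosis and -1.23 for replicative histone. CK over WT stood on the log2 scale at 0.0046 for S score list, -0.0067 for G2M score list, -0.039 for polymerase and fork, -0.094 for mitosis and 0.34 for replicative histone. The mean log2 ratio over other centroblasts was 1.75 for S score list, -0.54 for G2M score list, 1.503 for licensing and helicase, 1.43 for polymerase and fork, 1.32 for nucleotide supply, 1.14 for chromatin assembly, -0.55 for mitosis and 1.404 for replicative histone. Relative to T-like barcodes, log2 values of C over WT were 0.45 for marker, 0.23 for S score list, 0.20 for licensing and helicase, 0.58 for replicative histone and -0.26 for MHC class II. Log2 values of K over WT were 0.39 for marker, 0.44 for S score list, 0.24 for G2M score list, 0.40 for licensing and helicase, 0.22 for polymerase and fork, 0.47 for chromatin assembly, 0.25 for mitosis and 0.58 for replicative histone. Log2 values of CK over WT were -0.19 for marker, -0.078 for S score list, -0.19 for G2M score list, -0.063 for licensing and helicase, -0.097 for polymerase and fork, 0.19 for nucleotide supply, -0.62 for mitosis, 0.24 for replicative histone and -0.24 for MHC class II. Relative to the other centroblasts, C over WT stood on the log2 scale at -0.43 for marker, -0.48 for S score list, -0.11 for G2M score list, -0.33 for licensing and helicase, -0.34 for polymerase and fork, -0.11 for nucleotide supply, -0.25 for chromatin assembly, -0.24 for mitosis and -0.80 for replicative histone. K over WT stood on the log2 scale at -0.55 for marker, -0.47 for S score list, -0.12 for G2M score list, -0.31 for licensing and helicase, -0.39 for polymerase and fork, -0.083 for nucleotide supply, -0.24 for chromatin assembly, -0.65 for replicative histone and 0.0087 for MHC class II. CK over WT stood on the log2 scale at -0.92 for marker, -0.83 for S score list, -0.19 for G2M score list, -0.59 for licensing and helicase, -0.68 for polymerase and fork, -0.29 for nucleotide supply, -0.53 for chromatin assembly, -0.37 for mitosis, -1.16 for replicative histone and -0.095 for MHC class II. As list medians, log2 values of C over WT were -0.15 for mitosis, -0.57 for light zone and -0.084 for MHC class II. Log2 values of K over WT were 0.18 for polymerase and fork, 0.0056 for mitosis, -1.23 for replicative histone and 0.21 for MHC class II. Log2 values of CK over WT were -0.044 for G2M score list, 0.56 for nucleotide supply, -0.084 for mitosis and -0.44 for MHC class II. With at least 20 UMIs and no CPM minimum, the genes past 1.5-fold numbered 499 up in C, 416 down in C, 655 up in K, 914 down in K, 947 up in CK and 817 down in CK. With only members with both scores above 0, chosen after seeing the data, log2 values of K over WT were -0.20 for S score list, -0.18 for G2M score list, -0.16 for polymerase and fork, -0.56 for mitosis and -1.24 for replicative histone. Log2 values of CK over WT were -0.0026 for S score list, -0.0036 for G2M score list, -0.041 for polymerase and fork, -0.094 for mitosis and 0.35 for replicative histone. No paired analysis was possible because each genotype has 1 library and the results come from no test. Leaving out a replicate was not possible for the same reason.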
